A study of Drosophila melanogaster with 8 samples.

Results

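Purine nucleotide synthesis was followed in Drosophila melanogaster S2 cells through 8 genes, out of 11009 genes measured. They came from a list of 10 genes that make purine nucleotides, by taking each gene that has a probe set naming that gene alone. Prat, Prat2, Gart, Pfas, Paics, Adss, ras and bur met this rule, with 1 probe set each, while AdSL and awd did not and are not analysed here. S2 cells are a macrophage-like line derived from embryos. They were given double-stranded RNA (dsRNA) directed at the DmSTING transcript or of scrambled sequence. After 72 h they received either c-di-GMP, a cyclic dinucleotide of 2 guanine nucleotides that bacteria use as a messenger, carried by the Cellfectin lipid reagent, or that reagent alone, which is called mock. Total RNA was taken 24 h after that and hybridised to 8 arrays. The 4 groups, of 2 arrays each, were DmSTING c-di-GMP, DmSTING mock, scrambled c-di-GMP and scrambled mock. All cells thus received a dsRNA and the lipid reagent. The study asked how DmSTING, the fly relative of the cyclic dinucleotide sensor STING, bears on the response to c-di-GMP, and here the question is whether a delivered guanine dinucleotide alters the genes of purine synthesis.

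Cells build purines on a ribose phosphate in a chain of enzyme steps that ends in inosine monophosphate (IMP), the branch point between the adenine and guanine nucleotides. In flies the amidotransferases Prat and Prat2 carry out the first committed step, the multifunctional enzyme Gart and the enzymes Pfas and Paics carry the chain on, Adss starts the branch to AMP, and ras and then bur make GMP. The route is fed by ribose phosphate and one-carbon units and runs beside salvage enzymes that reuse free bases and nucleosides, and it is controlled in large part by its own end products acting on the enzymes, which an RNA measurement does not read.

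Groups follow the sample titles. The genotype field contradicts the titles in both scrambled c-di-GMP and both DmSTING mock samples. The Sting transcript goes with the titles, at -0.84 to -0.46 in the 4 DmSTING samples against 0.46 to 0.83 in the 4 scrambled samples. These values are on the deposited log scale, whose base is taken as 2. In c-di-GMP against mock cells, Sting changed by -0.31 with scrambled and -0.33 with DmSTING dsRNA (limma adjusted p = 0.0367 and 0.0376). Between the dsRNAs the difference averaged -1.30 (SE 0.051, limma adjusted p = 0.000252), so the Sting transcript was lower with DmSTING dsRNA. This difference was called in all 15 alternative analyses. Each deposited value is relative to the median of its probe set over the 8 samples. Levels of different genes, the absolute amount of Sting transcript left, and whether S2 markers are expressed thus cannot be read. Relative to scrambled dsRNA, the Sting signal with DmSTING dsRNA averaged a fold of 0.41, if the logarithm has base 2. In bulk RNA, fewer cells of a kind and less RNA per cell cannot be told apart. The labels do not tell whether replicates came from separate cultures, so the p-values cover the spread among these arrays, which may be technical. Across all genes, the SD of the difference between the replicates of a group lay between 0.119 (DmSTING mock) and 0.233 (scrambled c-di-GMP).

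Adss and bur were higher in c-di-GMP than in mock cells when both dsRNAs were averaged, by 0.22 and 0.28 on the log2 scale, and the other 6 genes did not pass the threshold. Both enzymes stand downstream of IMP, Adss (adenylosuccinate synthetase) on the AMP branch and bur (GMP synthetase, the gene burgundy) at the last step to GMP. Of the measured enzymes that build IMP, Prat, Prat2, Gart, Pfas and Paics did not pass, nor did ras, which stands downstream of it. A difference between the steps before and after IMP was not tested. In this comparison 2 of 8 genes were called higher and 0 lower. Of all 11009 genes, 20.9% were called in either direction, made up of 7.65% higher and 13.3% lower, so the share of purine genes called in either direction is near the background. A gene is called where its limma p, adjusted by Benjamini-Hochberg over all genes, is under 0.05. At an unadjusted p under 0.05 there were 4 of the 8 genes, Gart and ras in addition, beside 33.4% of all genes. The median change of the 8 genes was 0.086, beside -0.027 for all genes, and their median absolute change was 0.096, beside 0.11 for all genes.

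**Figure D1:**
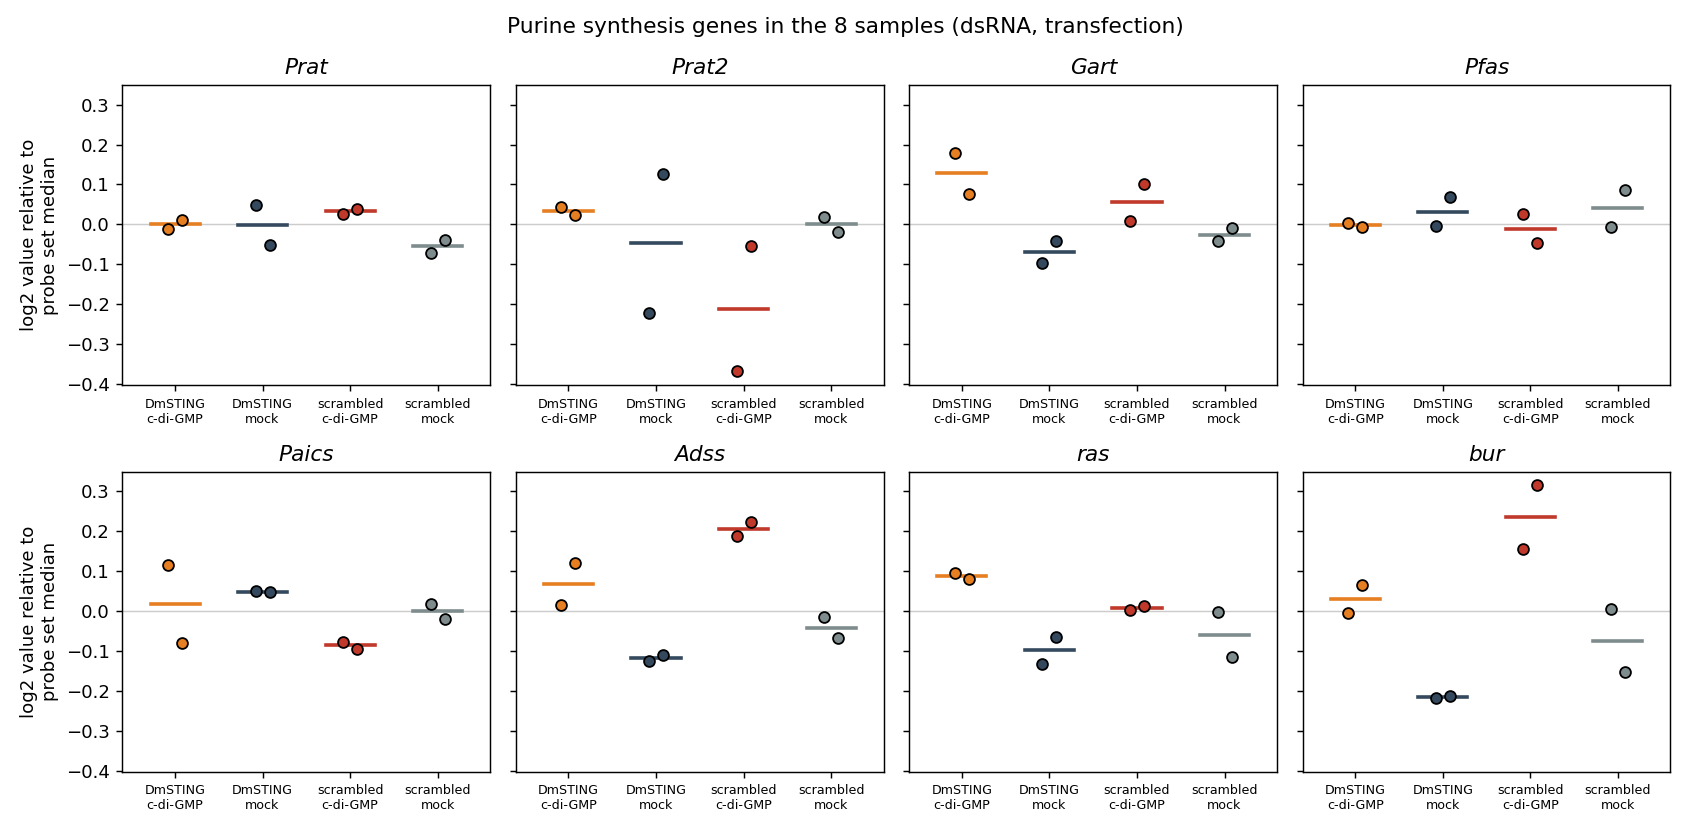
Log2 values relative to the probe set median (vertical axis) of the 8 purine synthesis genes in each sample; points are the 2 replicates of a group and bars their mean. In Adss all 4 c-di-GMP samples, from 0.016 to 0.22, lie above all 4 mock samples, from -0.12 to -0.016, while Prat2 spreads from -0.37 to 0.13 with its replicates far apart.

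Adss makes adenylosuccinate from IMP with the use of GTP. With DmSTING dsRNA its log2 values were 0.016 and 0.12 in c-di-GMP cells against -0.12 and -0.11 in mock cells. With scrambled dsRNA they were 0.19 and 0.22 in c-di-GMP cells against -0.016 and -0.068 in mock cells. All 4 c-di-GMP samples were above all 4 mock samples, and within the c-di-GMP samples the scrambled pair was above the DmSTING pair. The average change was 0.22 (SE 0.048, 95% interval 0.10 to 0.33, n = 2 per group, limma adjusted p = 0.0194), a rise of 16.2% if the logarithm has base 2, and 23.1% of all genes changed by more in either direction.

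For bur, the values with DmSTING dsRNA were -0.0046 and 0.066 in c-di-GMP cells against -0.22 and -0.21 in mock cells. With scrambled dsRNA they were 0.15 and 0.32 in c-di-GMP cells against 0.0046 and -0.15 in mock cells. Within each dsRNA the c-di-GMP pair was above the mock pair, but across both dsRNAs 1 DmSTING c-di-GMP sample lay below 1 scrambled mock sample. The average change was 0.28 (SE 0.061, 95% interval 0.13 to 0.42, limma adjusted p = 0.0183), a rise of 21.2% on base 2, and 15.5% of all genes changed by more.

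Both calls depended on which libraries were in the fit. They were lost without scrambled mock replicate 2 (limma adjusted p = 0.0639 for Adss and 0.0614 for bur), without DmSTING mock replicate 1 (0.0882 for Adss and 0.0758 for bur) or replicate 2 (0.0817 for Adss and 0.0747 for bur), and without DmSTING c-di-GMP replicate 2 (0.0601 for Adss and 0.0603 for bur). The size of the change moved little, from 0.19 to 0.24 for Adss and from 0.24 to 0.32 for bur over the 8 analyses that left out 1 library, and the adjusted p ranged from 0.0114 to 0.0882 for Adss and from 0.00911 to 0.0758 for bur over all 15 alternatives.

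**Figure D2:**
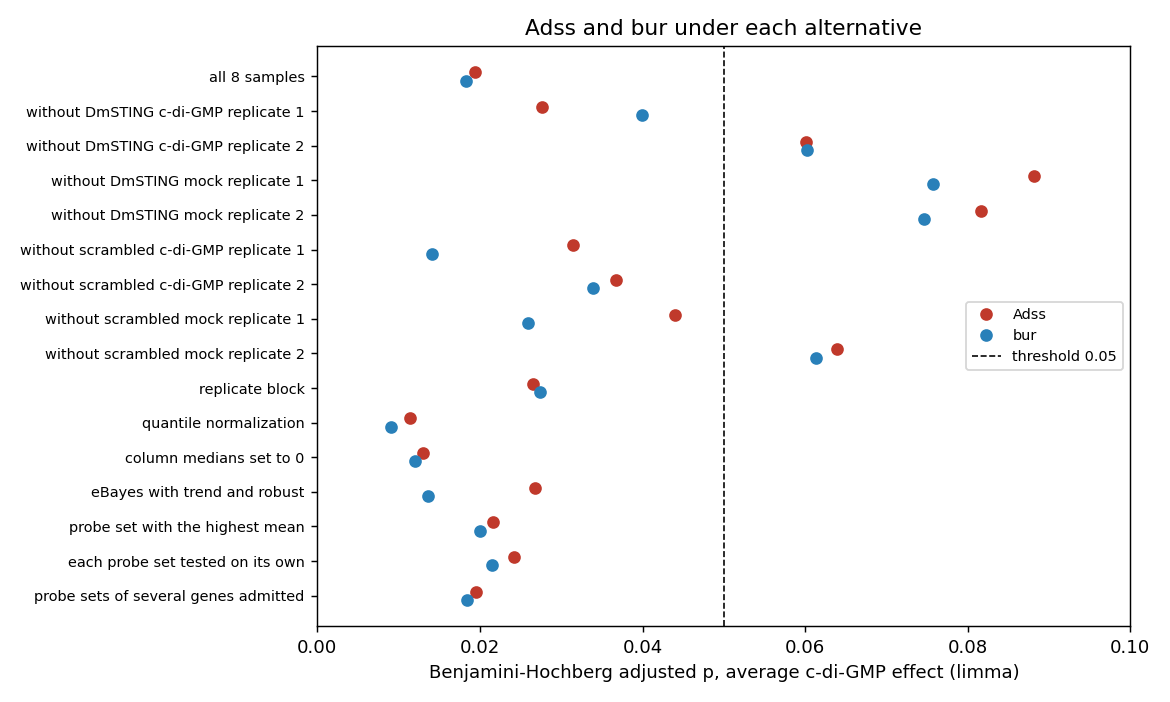
Benjamini-Hochberg adjusted p (horizontal axis) of the average c-di-GMP effect on Adss and bur with all 8 samples and under each of 15 alternatives (rows). Points right of the dashed line at 0.05 are calls lost, which are 4 of the 8 analyses that left out 1 library, for both genes.

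The enzyme ras (raspberry, IMP dehydrogenase) turns IMP into the substrate of bur and is the entry to the guanine branch. Its values with DmSTING dsRNA were 0.096 and 0.079 in c-di-GMP cells against -0.13 and -0.065 in mock cells. With scrambled dsRNA they were 0.0032 and 0.013 in c-di-GMP cells against -0.0032 and -0.11 in mock cells. The 4 c-di-GMP samples were above the 4 mock samples, in the scrambled arm by a margin smaller than the gap between the mock replicates. The average change was 0.13 (SE 0.049, 95% interval 0.011 to 0.24, limma unadjusted p = 0.0357, adjusted p = 0.118) and did not pass. The probe sets of ras, Pfas and Prat2 are of kinds that the array maker marks as able to match more than 1 transcript.

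Among the genes that build IMP, Gart was the one whose c-di-GMP and mock samples did not overlap. Gart holds several enzyme activities of the chain in 1 protein. With DmSTING dsRNA it was at 0.18 and 0.077 in c-di-GMP cells against -0.097 and -0.042 in mock cells. With scrambled dsRNA it was at 0.0092 and 0.10 in c-di-GMP cells against -0.042 and -0.0092 in mock cells. The separation was wider with DmSTING dsRNA than with scrambled dsRNA, and the average change of 0.14 (SE 0.051, 95% interval 0.019 to 0.26, adjusted p = 0.101) did not pass. In all, 3 of the 8 genes (Gart, Adss and ras) had every c-di-GMP sample above every mock sample and 0 had every one below, beside 9.71% and 15.4% of all genes, or 25.1% in either direction.

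Prat and Prat2 encode the same first committed step, and neither passed the threshold. Prat varied less than nearly all genes, with a range over the 8 samples of 0.12, and 1.42% of genes had a smaller one. With DmSTING dsRNA it was at -0.011 and 0.011 in c-di-GMP cells against 0.049 and -0.053 in mock cells. With scrambled dsRNA it was at 0.027 and 0.040 in c-di-GMP cells against -0.071 and -0.040 in mock cells. The treatments overlapped with DmSTING dsRNA and not with scrambled dsRNA, and the average change was 0.045 (95% interval -0.066 to 0.16, adjusted p = 0.556). Prat2 was the least repeatable of the 8 genes, with a residual SD of 0.17 between replicates, which 82.4% of genes fell under. With DmSTING dsRNA Prat2 was at 0.043 and 0.024 in c-di-GMP cells against -0.22 and 0.13 in mock cells. With scrambled dsRNA it was at -0.37 and -0.055 in c-di-GMP cells against 0.019 and -0.019 in mock cells. The replicates of 2 groups thus differed by more than any group means did, and the average change was -0.065 (95% interval -0.29 to 0.16, adjusted p = 0.691). After quantile normalization that average was 0.0048, and it was above 0 also without scrambled c-di-GMP replicate 1 (0.013) or DmSTING mock replicate 2 (0.022).

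Pfas and Paics, which act in the middle of the chain, changed by -0.042 (95% interval -0.16 to 0.075, adjusted p = 0.605) and by -0.059 (95% interval -0.19 to 0.074, adjusted p = 0.521) on average. Pfas was at 0.0043 and -0.0075 with DmSTING dsRNA and c-di-GMP against -0.0043 and 0.068 with mock, and at 0.026 and -0.048 with scrambled dsRNA and c-di-GMP against -0.0054 and 0.087 with mock. The treatments overlapped within both dsRNAs. Paics was at 0.12 and -0.080 with DmSTING dsRNA and c-di-GMP against 0.051 and 0.048 with mock, and at -0.077 and -0.095 with scrambled dsRNA and c-di-GMP against 0.019 and -0.019 with mock. Its replicates in DmSTING c-di-GMP cells spanned nearly the whole range of the 8 samples, and c-di-GMP and mock were separate only with scrambled dsRNA. For Pfas and Paics the intervals, which cover only the spread among these arrays, end below the rise fitted for bur. A smaller rise lies inside them. Of the 8 genes, 7 had a residual SD below the median gene's 0.096, Prat2 being the exception.

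**Figure D3:**
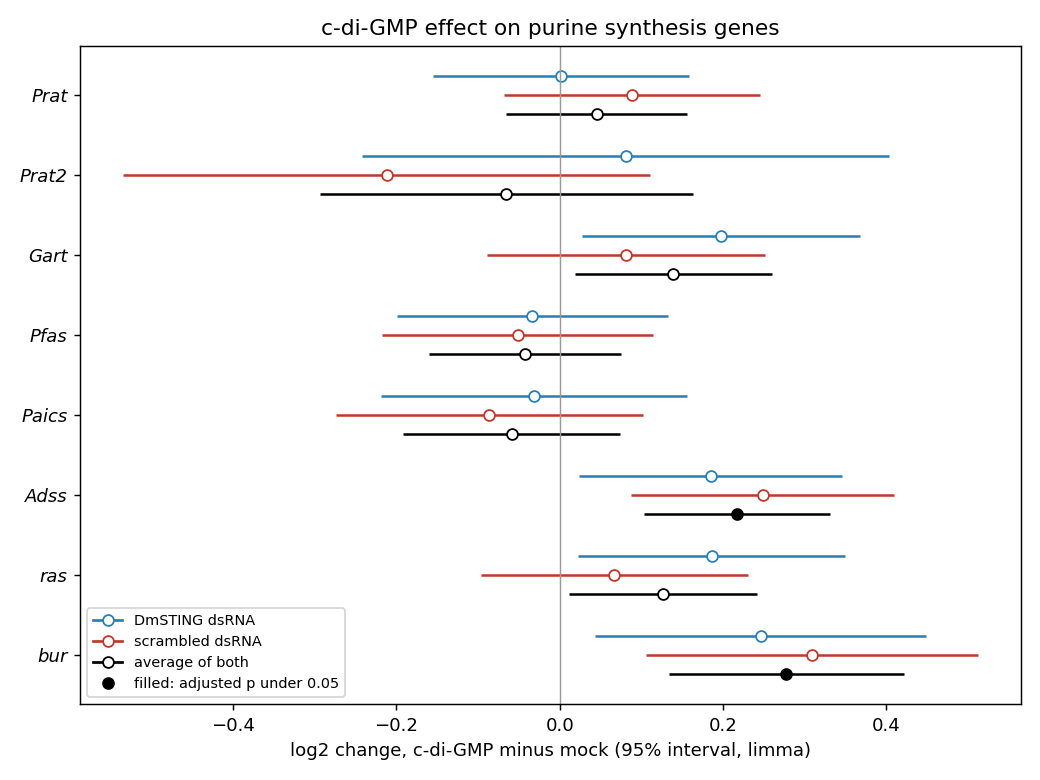
Log2 change, c-di-GMP minus mock (horizontal axis), of each gene with its 95% interval from limma, for DmSTING dsRNA, scrambled dsRNA and their average; filled points have an adjusted p under 0.05. Only the averages of Adss, 0.22, and bur, 0.28, are filled, and the intervals of Prat, Prat2, Pfas and Paics hold 0 in all 3 comparisons.

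Within each dsRNA taken alone, 0 of the 8 genes were called. With DmSTING dsRNA 7.44% of all genes were called (3.27% higher and 4.17% lower), and 4 of the 8 had an unadjusted limma p under 0.05, against 21.7% of all genes. These were bur at 0.25 (adjusted p = 0.151), Gart at 0.20 (adjusted p = 0.167), ras at 0.19 (adjusted p = 0.175) and Adss at 0.19 (adjusted p = 0.17). With scrambled dsRNA 12.1% of all genes were called (4.14% higher and 7.93% lower), and 2 of the 8 had an unadjusted limma p under 0.05, against 28.4% of all genes. These were bur at 0.31 (95% interval 0.11 to 0.51, adjusted p = 0.0613) and Adss at 0.25 (95% interval 0.088 to 0.41, adjusted p = 0.0584). After the median of each array was set to 0, both passed in the scrambled arm, with adjusted p = 0.0432 for bur and 0.0422 for Adss. The adjusted p over the 16 alternatives of that comparison ranged from 0.0432 to 0.248 for bur and from 0.0422 to 0.207 for Adss. By samples, with DmSTING dsRNA both c-di-GMP values were above both mock values in 4 of the 8 genes (Gart, Adss, ras and bur) and below them in 0, beside 24.5% and 31.3% of all genes, or 55.8% in either direction. With scrambled dsRNA they were above in 5 (those 4 and Prat) and below in 2 (Prat2 and Paics), beside 20.6% and 32.8% of all genes, or 53.4% in either direction. Shares of this size over all genes leave little to be read from separation of 2 arrays against 2. The median change of the 8 genes was 0.13 with DmSTING dsRNA and 0.074 with scrambled dsRNA, beside -0.017 and -0.04 for all genes.

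Whether DmSTING knockdown altered the c-di-GMP effect was tested as the difference of the effects, DmSTING minus scrambled dsRNA. None of the 8 genes passed (0 at an adjusted and 0 at an unadjusted p under 0.05 by limma), and 0% of all genes were called, with 4.91% at an unadjusted p under 0.05. For Adss the difference was -0.063 (95% interval -0.29 to 0.16) and for bur -0.063 (95% interval -0.35 to 0.22). Below 0 these intervals reach past the size of the c-di-GMP effects themselves, and above 0 they end short of it. With 2 arrays per group, a smaller c-di-GMP effect under knockdown thus lies inside both intervals. With DmSTING dsRNA alone, the c-di-GMP effect had a 95% interval of 0.024 to 0.35 for Adss and 0.043 to 0.45 for bur. These intervals leave out 0 but are not adjusted for the number of genes, and neither gene was called there. The largest difference was that of Prat2, at 0.29 (95% interval -0.16 to 0.75), and those of ras at 0.12, Gart at 0.12, Paics at 0.055, Pfas at 0.018 and Prat at -0.087 were smaller. The adjusted p of the 8 genes ranged from 0.997 to 0.999.

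DmSTING knockdown itself left none of the 8 genes past the threshold, in mock cells, in c-di-GMP cells or on average, and Sting was the 1 gene called of 11009 in each of these comparisons, which is 0.00908%. At an unadjusted p under 0.05, limma gave 0 of the 8 genes in mock cells, 1 in c-di-GMP cells and 1 on average, beside 3.22%, 13.7% and 12.5% of all genes. That gene was bur, with an average difference, DmSTING minus scrambled dsRNA, of -0.17 (SE 0.061, 95% interval -0.32 to -0.029, adjusted p = 0.363). Its DmSTING and scrambled samples overlapped, since 1 scrambled mock sample at -0.15 lay below both DmSTING c-di-GMP samples. In none of the 8 genes were the 4 DmSTING samples all above or all below the 4 scrambled samples, beside 2.99% and 1.63% of all genes, or 4.61% in either direction. Adss was at -0.11 (95% interval -0.22 to 0.0069, adjusted p = 0.418), Prat2 at 0.099, Paics at 0.076, ras at 0.02, Gart at 0.014, Prat at 0.01 and Pfas at 0.00011.

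Across the 8 samples the genes did not share 1 pattern. Of their 28 pairs, 15 had a Pearson correlation above 0 and 13 below, with a median of 0.1 and a range from -0.75 for Paics with Adss to 0.97 for Adss with bur. Adss, bur, ras and Gart correlated with one another at 0.58 to 0.97, over 8 samples that share the same arrays and treatments. Over all genes, the 3 with the pattern most like that of bur were CG32756 (r = 0.99), Ide, an insulin-degrading metalloprotease (0.99), and dco, a casein kinase (0.99), of which dco did not pass the c-di-GMP test itself (adjusted p = 0.0597). Those most like Adss were Ranbp21 (r = 0.98), Nazo, an antiviral gene downstream of Sting (0.98), and cag (0.98). All of these genes were picked as the highest correlations among all genes over 8 samples, so high values follow in part from the picking, and no test was made. Their average c-di-GMP changes ran from 0.15 for dco to 0.85 for Nazo, so the likeness is one of shape and not of size.

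The other genes of purine metabolism were read from a list of 32, of which 26 had a probe set of their own. In the average c-di-GMP comparison 4 of these 26 were called higher and 3 lower, beside the 20.9% of all genes called in either direction. Their median change was -0.045, beside -0.027 for all genes. With DmSTING dsRNA alone 0 were called higher and 2 lower, beside 3.27% and 4.17% of all genes. With scrambled dsRNA alone 1 was called higher and 3 lower, beside 4.14% and 7.93% of all genes.

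Of 4 measured genes that supply substrates, 1 passed, beside 20.9% of all genes called in either direction. Nmdmc, a folate enzyme that interconverts one-carbon units, was at 0.44 and 0.27 with DmSTING dsRNA and c-di-GMP against -0.11 and -0.037 with mock, and at 0.31 and 0.037 with scrambled dsRNA and c-di-GMP against -0.19 and -0.23 with mock. Its c-di-GMP and mock samples did not overlap, as in 25.1% of all genes in either direction, and it rose by 0.41 (SE 0.075, limma adjusted p = 0.00897). Prps, which makes the activated ribose phosphate that Prat and Prat2 consume, was at -0.12 (95% interval -0.31 to 0.079, adjusted p = 0.381). CG11089, listed for the last steps to IMP, has only probe sets that also name CG31381 and is not analysed here.

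Among 5 measured salvage genes Aprt, adenine phosphoribosyltransferase, was the one that passed, at 0.27 (SE 0.062, adjusted p = 0.0209), beside 20.9% of all genes called. Its values with DmSTING dsRNA were 0.15 and 0.10 in c-di-GMP cells against -0.20 and -0.18 in mock cells, and with scrambled dsRNA 0.13 and 0.039 in c-di-GMP cells against -0.039 and -0.26 in mock cells, without overlap. The call was lost without scrambled mock replicate 2 and without any 1 of the 4 DmSTING libraries (adjusted p from 0.0502 to 0.0849). The other 4 salvage genes, among them adenosine kinases, lay between -0.11 and 0.018 and did not pass.

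Of 13 measured enzymes that interconvert purine nucleotides and nucleosides, 2 were called higher and 3 lower on average and 8 were not called, beside 7.65% and 13.3% of all genes called higher and lower. Ak1, an adenylate kinase, fell by 0.59 (SE 0.098, adjusted p = 0.00599) and nmdyn-D7, of the nucleoside diphosphate kinase family, fell by 0.52 (SE 0.06, adjusted p = 0.00161), and both were called in all 15 alternatives. For nmdyn-D7 the values were -0.13 and -0.15 with DmSTING dsRNA and c-di-GMP against 0.35 and 0.44 with mock, and -0.27 and -0.28 with scrambled dsRNA and c-di-GMP against 0.13 and 0.34 with mock, so no sample of either treatment overlapped the other. AMPdeam, AMP deaminase, which returns AMP to IMP, was at -0.19 (adjusted p = 0.0318) as the mean of 4 probe sets that ran from -0.45 to -0.034. It was at -0.047 with DmSTING dsRNA (adjusted p = 0.778) and at -0.34 with scrambled dsRNA (adjusted p = 0.0245), so the average rests mostly on the scrambled arm. The difference of these effects was 0.29 (95% interval 0.060 to 0.52, limma adjusted p = 0.988). The call of the AMPdeam average was lost in 9 of 15 alternatives, among them every analysis that left out 1 library other than scrambled mock replicate 1 and scrambled c-di-GMP replicate 2 (adjusted p from 0.0588 to 0.128), quantile normalization (adjusted p = 0.0861), trend and robust options (adjusted p = 0.0514) and the choice of the probe set with the highest mean (-0.034, adjusted p = 0.766). That choice is arbitrary, since the mean of centred values does not mark the probe set of strongest signal. With probe sets tested singly, the 1 of lowest adjusted p was kept, at -0.45, which favours keeping the call. The 4 probe sets of AMPdeam are of the same kind as that of ras. AMPdeam is named beyond the rule that fixed the other genes, after its value was seen.

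Ak6, a nuclear adenylate kinase family member, and Adgf-A, a secreted adenosine deaminase, rose by 0.39 (SE 0.086, adjusted p = 0.0184) and by 0.48 (SE 0.13, adjusted p = 0.0346). Adgf-A stood at -0.053 and 0.53 with DmSTING dsRNA and c-di-GMP against -0.0086 and -0.013 with mock, and at 0.55 and 0.78 with scrambled dsRNA and c-di-GMP against 0.0086 and -0.11 with mock. DmSTING c-di-GMP replicate 1 was thus with the mock samples and the other 3 c-di-GMP samples above them, and the difference between the dsRNAs was -0.46 (95% interval -1.05 to 0.13, adjusted p = 0.988). The call of Adgf-A was lost without any 1 mock library or scrambled c-di-GMP replicate 2 (adjusted p from 0.0686 to 0.11) and with trend and robust options (adjusted p = 0.146), and that of Ak6 without scrambled mock replicate 1, either DmSTING mock replicate or DmSTING c-di-GMP replicate 2 (adjusted p from 0.0531 to 0.0708).

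Neither measured gene of purine breakdown passed, with ry, xanthine dehydrogenase, at 0.18 (95% interval 0.029 to 0.32, adjusted p = 0.0931) and veil, a nucleotidase, at -0.03 (adjusted p = 0.835). With ry, the 4 c-di-GMP samples, from 0.032 to 0.14, were above the 4 mock samples, from -0.25 to -0.032, and it passed without scrambled mock replicate 2 (0.23, adjusted p = 0.0462) and after quantile normalization (0.21, adjusted p = 0.0437). Of the list of products of GTP and deoxynucleotides, Pu and RnrL were measured and neither passed. RnrL, the large subunit of ribonucleotide reductase, was at -0.066 (adjusted p = 0.393). Pu, GTP cyclohydrolase, which draws on GTP for pteridine synthesis, was at -1.04 and 0.094 with DmSTING dsRNA and c-di-GMP against -0.21 and -0.094 with mock, and at 0.38 and 0.95 with scrambled dsRNA and c-di-GMP against 0.23 and -0.16 with mock. The DmSTING c-di-GMP replicates of Pu lay further apart than those of any other group, and the average change of 0.15 (95% interval -0.44 to 0.75, adjusted p = 0.721) was -0.13 without DmSTING c-di-GMP replicate 2. The change of Pu was 0.63 with scrambled and -0.32 with DmSTING dsRNA, neither of them called. The difference of these effects was -0.95 (95% interval -2.14 to 0.24, limma adjusted p = 0.988).

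**Figure D4:**
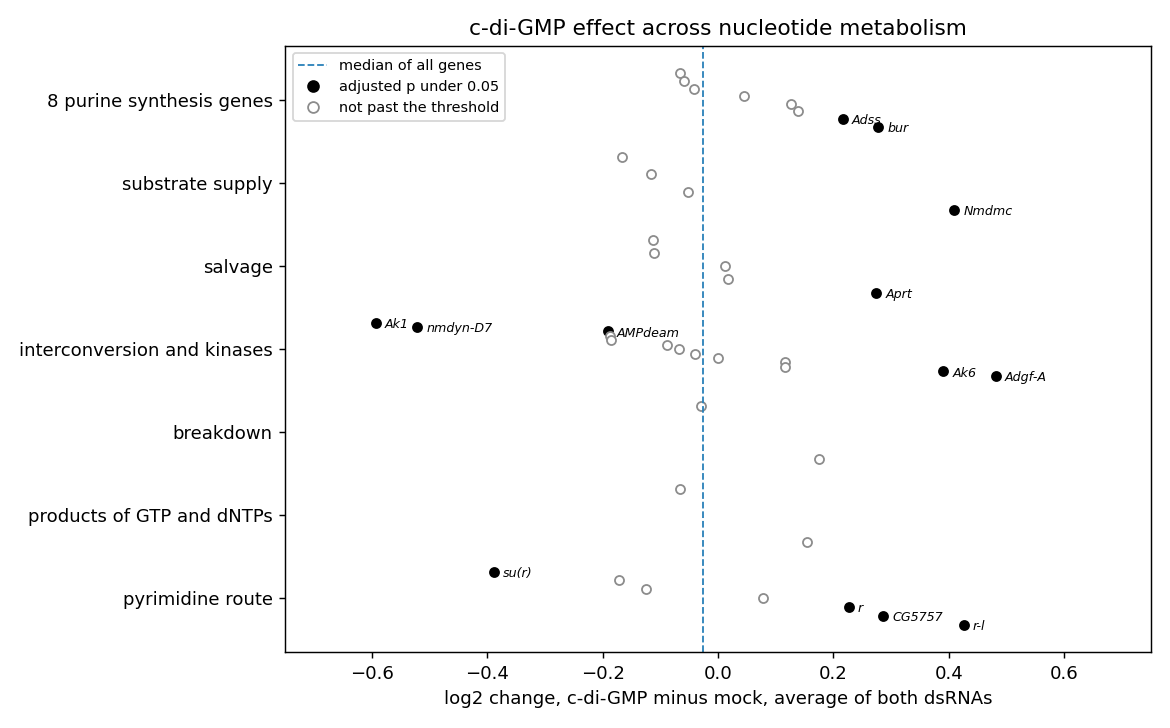
Average log2 change, c-di-GMP minus mock (horizontal axis), of the 8 purine synthesis genes and of the other measured genes of nucleotide metabolism by group (rows); filled, named points have an adjusted p under 0.05 and the dashed line is the median of all genes, -0.027. The 8 purine synthesis genes lie between -0.065 and 0.28, inside the span from Ak1 at -0.59 to Adgf-A at 0.48.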

How the data were processed

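Expression was measured on 8 arrays of biotin-labelled total RNA, prepared per the labels' protocols with an Affymetrix GeneChip IVT kit. The deposited table holds log2 values for 16718 probe sets, each centred by the authors on its median over the samples (within 1e-06 of 0, tested on the values). The sources used here do not give the summarization, scaling, software, genome build or base of the logarithm, which is taken as 2, and no coordinates or sequences are printed. The number of arrays limits the precision. The platform annotation gave 1 symbol for 12339 probe sets, several for 367 and none for 3888, with 124 controls. No symbol differed from RefSeq's for the same Entrez ID, and 67 IDs were not found there. Probe sets of a gene were averaged (11009 genes). With limma 3.58.1 in R 4.3.3 (lmFit, eBayes), 4 group means were fitted to all 8 samples (4 residual degrees of freedom), with 7 contrasts, Benjamini-Hochberg adjustment over all genes and 95% intervals. Alternatives were each library left out, only the 4 samples compared, the replicate number as a block, quantile normalization, array medians set to 0, trend and robust eBayes, the probe set with the highest mean, probe sets tested singly, and probe sets of several genes admitted. The highest mean was taken over centred values, so it does not mark the strongest signal. Of probe sets tested singly, the 1 of lowest adjusted p was read for a named gene with several. For a gene with 1 probe set, these 2 alternatives reuse its main values. The code was tested on simulated data. Members and lists were chosen with earlier results of these data known. Named genes are the 8 members, Sting, Prps, up to 4 called genes of largest change per list (the 2 of smallest p where none passed), and the 3 genes correlating best with the 2 most changed members. Adenylate and adenosine kinases were assigned by gene number, since their symbols have been exchanged. Promoter motifs were not analysed here.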

Additional observations from a re-analysis of the deposited data

How the results depend on the processing

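With 2 arrays per group, 1 library can decide a call. The count of purine genes called on average was 2 and ranged from 0 to 2 when 1 library was left out. It was 2 in the scrambled arm after the median of each array was set to 0, where it was otherwise 0, and 0 in all alternatives of the other comparisons. The counts of all genes called moved more. They were 2303 (842 higher, 1461 lower) on average, 1189 and 1161 without DmSTING mock replicates 1 and 2, and 1089 higher and 1235 lower after quantile normalization. In the scrambled arm they were 1329 (456 higher, 873 lower), 584 without either DmSTING mock replicate, 426 without scrambled mock replicate 1 and 221 without its replicate 2, 141 with only the 4 samples compared, and 446 higher and 479 lower after quantile normalization. In the DmSTING arm they were 819, then 0 without either DmSTING mock replicate, 300 and 162 without DmSTING c-di-GMP replicates 1 and 2, and 1239 after quantile normalization. The difference of the effects gave 0, and 12 without DmSTING c-di-GMP replicate 2. DmSTING against scrambled dsRNA gave 1, and then 12 on average and 34 under c-di-GMP without that replicate, and 0 in mock cells without any 1 mock library and under c-di-GMP without DmSTING c-di-GMP replicate 1 or with only the 4 samples compared.

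Small changes turned sign, and the cause was not tested. When 1 library was left out, the range with DmSTING dsRNA was -0.049 to 0.053 for Prat, -0.093 to 0.26 for Prat2, -0.069 to 0.0027 for Pfas and -0.13 to 0.066 for Paics. On average it was -0.15 to 0.022 for Prat2, -0.11 to 0.050 for veil and -0.13 to 0.44 for Pu. For the difference of the effects it was -0.028 to 0.064 for Pfas, -0.043 to 0.15 for Paics and -0.14 to 0.017 for bur. For DmSTING against scrambled dsRNA on average it was -0.015 to 0.036 for Prat, -0.011 to 0.040 for Gart, -0.023 to 0.023 for Pfas and -0.0078 to 0.048 for ras. After quantile normalization Prat2 was at 0.0048 and veil at 0.022 on average, bur at 0.017 for the difference of the effects, and Gart at -8.1e-06, Pfas at -0.014 and ras at -0.00020 for DmSTING against scrambled dsRNA. After the medians were set to 0, that comparison had Prat at -0.0025 and Pfas at -0.013.

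With the replicate number as a replicate block, 2 purine genes and 2378 genes in all were called on average, and Adss (adjusted p = 0.0266) and bur (0.0274) stayed past the threshold. The deviations of same-numbered samples correlated at 0.0093 to 0.29 over the 6 pairs of groups, so the numbers are not taken to pair the samples. A filter on low values was not run, since centred values hold no level.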

Other observations

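The pyrimidine route, which makes the other class of nucleotides from the same ribose phosphate, had 7 of 8 listed genes measured. In the average c-di-GMP comparison 3 were called higher and 1 lower by limma, beside 20.9% of all genes called in either direction, with a median change of 0.078 against -0.027 for all genes. The gene r-l, which makes UMP, was at 0.14 and 0.11 with DmSTING dsRNA and c-di-GMP against -0.30 and -0.39 with mock, and at 0.30 and 0.20 with scrambled dsRNA and c-di-GMP against -0.11 and -0.16 with mock. No c-di-GMP sample of r-l overlapped a mock sample, and the rise of 0.43 (SE 0.051, adjusted p = 0.00177) was larger than that of any of the 8 purine genes and was called in all 15 alternatives, as well as within each dsRNA (adjusted p = 0.0127 with DmSTING and 0.0182 with scrambled dsRNA). The gene r, which encodes the enzyme of the first steps to UMP, rose by 0.23 (SE 0.054, adjusted p = 0.0241), and CG5757 rose by 0.29 (SE 0.062, adjusted p = 0.0173). The call of r was lost without scrambled mock replicate 2, either DmSTING mock replicate or DmSTING c-di-GMP replicate 2 (adjusted p from 0.0732 to 0.097), and that of CG5757 without any of the last 3 (adjusted p from 0.0546 to 0.0748). The gene su(r), which breaks pyrimidines down, fell by 0.39 (SE 0.059, adjusted p = 0.00449) and was called in all 15 alternatives. The differences between these genes and the purine genes were not tested.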
